A study of Homo sapiens with 12 samples.

Results

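A set of 37 lysosome and autophagy genes was followed in Huh7 cells, an established human hepatocellular carcinoma line, after treatment with disulfiram, thalidomide or both. The genes were picked by symbol for their roles in lysosomes and autophagy, and the Ensembl identifiers in the expression table were matched to those symbols through GENCODE release 29, whose hg38 coordinates are given with each gene. All 37 were found among 59191 features, and all 37 passed the filter on low values, which kept 15352 genes for testing. The set holds 3 regulators, 4 membrane proteins, 9 proteases, 5 glycosidases, 4 genes of lipid handling, 3 subunits of the proton pump and 9 autophagy genes.

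The samples form 4 groups of 3 libraries each, named here combination (disulfiram together with thalidomide), disulfiram, thalidomide and control, where the control columns carry the solvent name DMSO. Disulfiram inhibits aldehyde dehydrogenases, and thalidomide binds cereblon, which brings proteins to a ubiquitin ligase. The sources used here state neither doses with units nor treatment times nor sequencing depth. The extraction text that accompanies the samples describes droplet capture of cells from patient tissue, which does not match 12 bulk columns of a cell line, so the library preparation and its strand are not known. Nothing states that the 3 libraries of a group are separate cultures, and the p-values below then measure only the spread between these libraries, which may be technical. In bulk RNA, fewer cells of a kind and less RNA per cell cannot be told apart.

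Lysosomes are acidic organelles in which proteases, glycosidases and lipases break down material delivered by endocytosis and by autophagy. The vacuolar proton pump acidifies them, highly glycosylated membrane proteins line them, and autophagy machinery wraps cytoplasmic cargo in a double membrane that then fuses with them. The transcription factors TFEB and TFE3 bind a palindromic motif, the CLEAR element, in the promoters of many of these genes, and in liver cells this system turns over mitochondria, protein aggregates and lipid droplets.

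The promoters of the 5 members that carry the core of the CLEAR element are shown because these genes did not move alike. The promoter of BECN1 is shown because BECN1 had the largest rise in the combination and no such core in its window. Each stretch is the 100 bases before the transcription start in RefSeq on GRCh38.p14, read 5′ to 3′ on the gene's own strand, with the 8-letter core in capitals. The ATP6V0D1 and GAA stretches lie partly inside the GENCODE spans of these genes. The CTSA and BECN1 stretches lie wholly inside the GENCODE spans given below for these genes. With 1 window for each, the bases before their GENCODE starts were not searched. They lie at chr19:7522524-7522623 (MCOLN1), chr20:45891235-45891334 (CTSA), chr17:80101481-80101580 (GAA) and chr13:113297139-113297238 (LAMP1) on the plus strand, and at chr16:67481158-67481257 (ATP6V0D1) and chr17:42823880-42823979 (BECN1) on the minus strand.
MCOLN1: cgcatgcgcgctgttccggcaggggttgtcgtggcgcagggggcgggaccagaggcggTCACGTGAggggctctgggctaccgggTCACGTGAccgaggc
CTSA: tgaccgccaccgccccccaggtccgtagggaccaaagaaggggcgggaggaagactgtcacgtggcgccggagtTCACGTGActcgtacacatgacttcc
GAA: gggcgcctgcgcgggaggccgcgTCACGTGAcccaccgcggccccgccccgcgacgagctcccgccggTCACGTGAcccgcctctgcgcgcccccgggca
LAMP1: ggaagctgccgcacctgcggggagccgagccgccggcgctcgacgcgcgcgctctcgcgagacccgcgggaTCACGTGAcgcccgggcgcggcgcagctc
ATP6V0D1: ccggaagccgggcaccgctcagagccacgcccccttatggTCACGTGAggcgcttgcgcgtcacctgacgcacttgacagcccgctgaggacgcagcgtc
BECN1: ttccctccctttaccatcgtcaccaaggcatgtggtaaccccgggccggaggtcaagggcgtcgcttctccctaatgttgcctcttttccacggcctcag

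The core, TCACGTGA, reads the same on both strands and contains the E-box CACGTG. It was found in the windows of 5 of the 30 members with a RefSeq promoter of 300 bases, or 16.7%, against 321 of 27305 genes, or 1.18%. The full CLEAR element, which adds a G before and a C after the core, was found in 2 members, MCOLN1 and GAA, and in 0.421% of all genes. The E-box, with or without the core, was in 9 of the 30 members and 8.77% of all genes. In MCOLN1 the cores begin at -42 and -15 from the start, in GAA at -77 and -32, and in LAMP1 at -29, with a further core across the start at -2. Over the 43 windows of the 30 members, the core of the antioxidant response element, TGACNNNGC searched on both strands, was in 11, or 25.6%, against 13.3% of all windows. The core TGATGNAA, bound by C/EBP-ATF factors, was in 0 of the 43 windows and in 3.62% of all. These matches describe letters in the windows and say nothing of binding. LAMP2, CTSB, HEXA, ASAH1, PSAP, ATP6V1H and ATP6V1A were not matched to a promoter.

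Values are TPM, the authors' length-scaled share of all transcripts, so levels may be compared between genes. In control cells the highest members were CD63 (1103 ± 38.7 TPM, SD, n = 3), PSAP (593 ± 45.5), CTSD (593 ± 15.6) and NPC2 (568 ± 62.8). PSAP and CTSD, as well as NPC2, did not differ beyond their spread. A total of 13 members averaged at least 100 TPM in control and 5 were below 20, and single values ran over all libraries between 5.32 and 1646.9 TPM. Of the hepatocyte markers 10 of 10 averaged at least 1 TPM in some group, with sums of 3699 to 4828 TPM in combination, 4104 to 4157 TPM in disulfiram, 5517 to 7668 TPM in thalidomide and 4339 to 6879 TPM in control. Of these 10, 2 were lower past the threshold with the combination and 2 with disulfiram against control, and 7 in the combination against thalidomide. These shares are 20%, 20% and 70%, against 6.7%, 4.52% and 7.24% of all genes tested. Genes at 1 TPM or more numbered 14681 to 15038 in combination, 14206 to 14790 in disulfiram, 13711 to 14207 in thalidomide and 13693 to 14097 in control, and mitochondrial transcripts took 8.24% to 10.3% of TPM in combination, 9.96% to 11.1% in disulfiram, 10.2% to 10.9% in thalidomide and 10.4% to 11.1% in control. Of the leukocyte markers 2 of 14 and of the endothelial markers 1 of 6 averaged at least 1 TPM in some group. Of the fibroblast and stellate markers 4 of the 7 found did so, with sums of 60.5 to 86.0 TPM in combination and 56.4 to 71.3 TPM in disulfiram. These sums were 55.2 to 84.4 TPM in thalidomide and 71.1 to 83.7 TPM in control. The endothelial sum was 3.84 to 5.44 TPM in combination, 3.55 to 7.42 TPM in disulfiram, 1.66 to 2.51 TPM in thalidomide and 0.79 to 1.55 TPM in control, nearly all of it PECAM1, while CDH5, KDR and CLEC4G were at or near 0. The leukocyte sum was 91.2 to 96.5 TPM in combination, 61.8 to 138.5 TPM in disulfiram, 119.3 to 166.4 TPM in thalidomide and 112.3 to 174.1 TPM in control, with 4 of its 14 markers at 0 in every library. The 2 markers that averaged at least 1 TPM carry most of it, so it is not a measure of leukocyte content. The part of these lists and measures in the results was not tested.

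With disulfiram 8 of the 37 genes rose and none fell, and with the combination 9 rose and 2 fell. The 8 that rose with disulfiram were MCOLN1, CD63, CTSA, CTSB, CTSL, NEU1, GABARAPL1 and BECN1. In the combination MCOLN1, CD63, CTSB, CTSL, GLA, ATP6V1A, GABARAPL1, GABARAPL2 and BECN1 rose, and LAMP1 and GAA fell. The test was limma on log2(TPM + 1) with all 12 libraries in 1 fit and Benjamini-Hochberg adjustment over all genes tested, at an adjusted p below 0.05. Fold changes are given on the log2(TPM + 1) scale with their SE, positive where the first-named treatment is higher.

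Among all genes tested, 13.2% were past the threshold with disulfiram (8.73% higher, 4.52% lower) and 25.1% with the combination (18.4% higher, 6.7% lower). The members' shares were 21.6% higher and 0% lower with disulfiram, and 24.3% higher and 5.41% lower with the combination. The median log2 fold change of the members was 0.12 with disulfiram, against 0.09 over all genes, and 0.04 with the combination, against 0.20 over all genes. Without regard to the test, the disulfiram libraries lay wholly above the control libraries for 16 members and wholly below them for 3, against 21.5% and 11.4% of all genes. For the combination these counts were 14 and 3, against 33.9% and 12.1% of all genes. In the combination 16 members lay above the median of all genes and 21 below it. Scaling the libraries by median-of-ratios moved the median of all genes to 0.03 for the combination and 0.00 for disulfiram. The members' median became -0.16 for the combination and 0.02 for disulfiram. The calls then split into 2 higher and 5 lower for the combination, against 1351 higher and 1877 lower over all genes. GABARAPL1 and BECN1 remained higher, LAMP1 and GAA remained lower, and CTSC, CTSF and SQSTM1 were lower. For disulfiram the split became 6 higher and 1 lower, with CTSA and GABARAPL1 lost and CTSC lower, against 768 higher and 969 lower over all genes. Without control replicate 1 the disulfiram count was 5, where 7.91% of all genes passed.

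**Figure D1:**
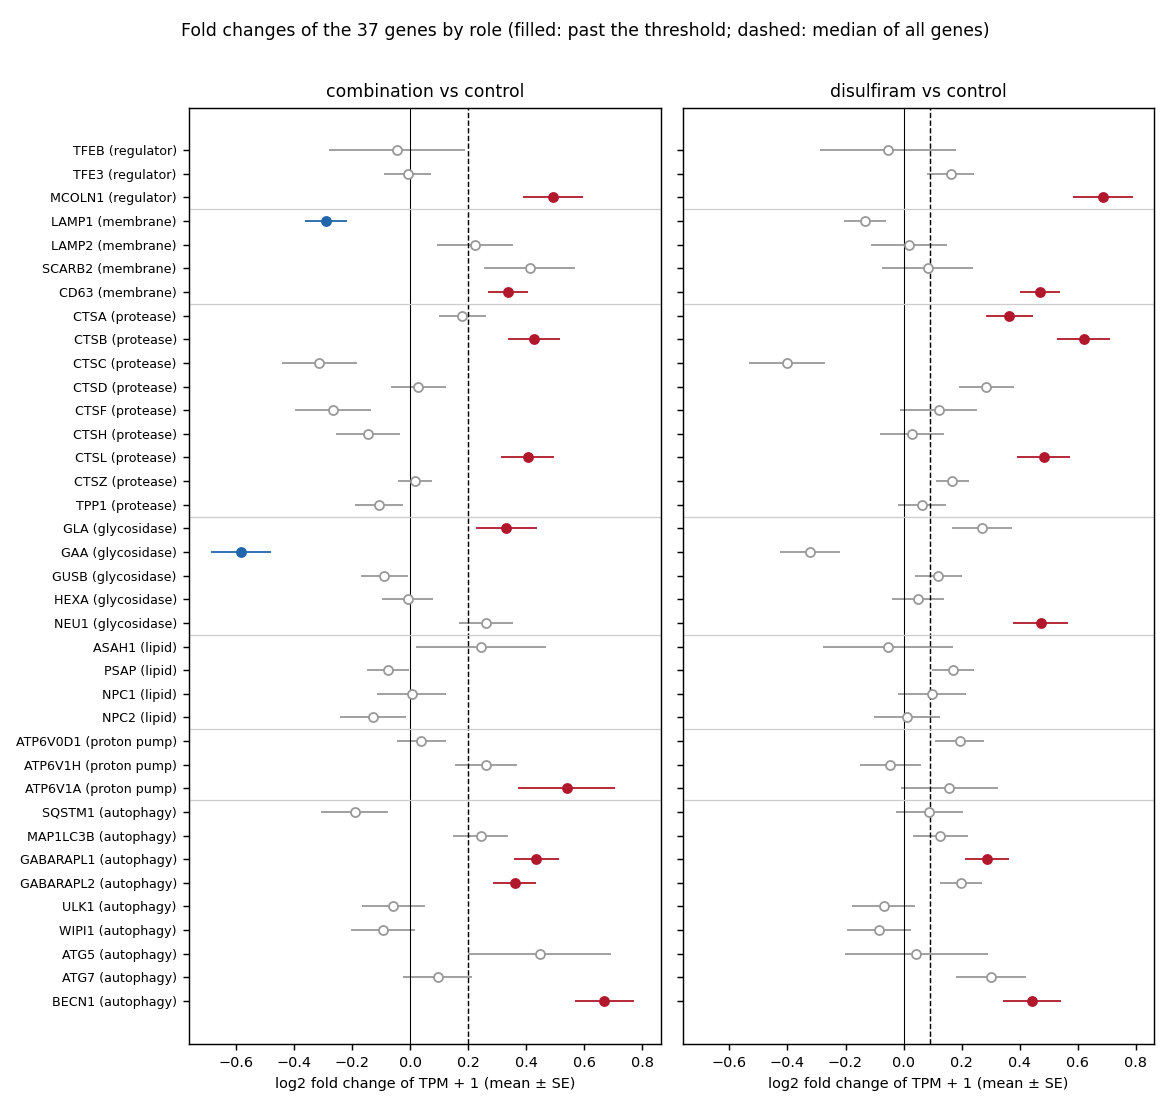
Log2 fold change of TPM + 1 (mean ± SE, horizontal axis) of each of the 37 genes, ordered by role, for combination against control (left) and disulfiram against control (right). Filled red points rose and filled blue points fell past the threshold, open points did not pass, and the dashed line is the median of all genes tested, 0.20 on the left and 0.09 on the right.

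The summed level of the 37 genes was 5958.5 ± 175 TPM in combination, 6531 ± 193 TPM in disulfiram, 5483 ± 144 TPM in thalidomide and 5550.0 ± 103 TPM in control (SD, n = 3 each). The 3 disulfiram sums, of which the lowest was 6378, lay above all other libraries, and the combination sums, 5805 to 6149, lay above the thalidomide and control sums. The protease sum was 1518 ± 75.9 TPM in combination, 1739 ± 108 TPM in disulfiram, 1404 ± 54.9 TPM in thalidomide and 1426 ± 33.6 TPM in control. CD63 was the highest member in every group, so these sums follow a few abundant genes. The sums are of TPM as deposited, and their order does not hold after median-of-ratios scaling. That scaling divides each library by a factor, which was 1.05 to 1.13 in combination and 0.968 to 1.06 in disulfiram. The factor was 0.878 to 0.971 in thalidomide and 0.938 to 0.982 in control.

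The transcription factors themselves were not called. TFEB, a master regulator of lysosomal genes (ENSG00000112561, chr6:41683978-41736259, minus strand), was low, with 5.49, 7.63 and 9.44 TPM in combination, 7.49, 9.72 and 5.32 TPM in disulfiram, 8.07, 8.01 and 6.63 TPM in thalidomide and 9.94, 7.87 and 5.64 TPM in control. All groups overlapped, and with a fold change of -0.05 ± 0.23 for disulfiram the 95% interval ran from -0.57 to 0.46, so changes of that size were not detectable. TFE3, its relative (ENSG00000068323, chrX:49028726-49043486, minus strand), had 57.4, 66.7 and 58.5 TPM in combination, 68.4, 71.9 and 65.4 TPM in disulfiram, 61.5, 56.4 and 62.6 TPM in thalidomide and 61.7, 60.6 and 61.1 TPM in control. The disulfiram libraries all lay above the control libraries, but the fold change of 0.16 ± 0.08 did not pass (adjusted p = 0.212, limma). Both factors are known to be governed by their location in the cell, which RNA levels do not show.

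MCOLN1 encodes TRPML1, the lysosomal calcium channel whose activity feeds back on TFEB (ENSG00000090674, chr19:7522626-7534009, plus strand). It stood at 42.5, 45.4 and 44.6 TPM in combination, 53.1, 52.3 and 46.9 TPM in disulfiram, 29.6, 25.3 and 31.1 TPM in thalidomide and 28.6, 29.9 and 35.2 TPM in control. Both disulfiram-treated groups lay wholly above thalidomide and control, which overlapped. The log2 fold change was 0.69 ± 0.10 for disulfiram (limma adjusted p = 0.00172) and 0.49 ± 0.10 for the combination (adjusted p = 0.00808). For disulfiram the call held under every alternative run, and for the combination it was lost with median-of-ratios scaling (adjusted p = 0.108). MCOLN1 shares exonic bases with PNPLA6 on the same strand, which also rose with disulfiram, by 0.37 ± 0.10 (adjusted p = 0.0291, limma), and whether reads were split between them was not tested.

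Among the membrane proteins CD63 rose and LAMP1 fell. CD63, a tetraspanin of late endosomes and exosomes (ENSG00000135404, chr12:55725323-55729707, minus strand), had 1338, 1482 and 1366 TPM in combination, 1460.4, 1647 and 1486 TPM in disulfiram, 1144, 1040.0 and 1110.4 TPM in thalidomide and 1147, 1073 and 1089 TPM in control. Every disulfiram and combination library was above every control library. The fold change was 0.47 ± 0.07 for disulfiram (limma adjusted p = 0.0014) and 0.34 ± 0.07 for the combination (adjusted p = 0.00678), the second of which was lost with median-of-ratios scaling (adjusted p = 0.375). LAMP1, the abundant glycoprotein of the lysosomal membrane (ENSG00000185896, chr13:113297241-113323672, plus strand), had 90.9, 98.9 and 89.3 TPM in combination, 106, 108 and 97.6 TPM in disulfiram, 107, 109.7 and 116 TPM in thalidomide and 119, 113 and 110.0 TPM in control. The combination libraries were all below the control libraries, and the fold change was -0.29 ± 0.07 (adjusted p = 0.0164, limma), against -0.13 ± 0.07 for disulfiram (adjusted p = 0.261). Leaving out combination replicate 1, combination replicate 3 or control replicate 1 ended the LAMP1 call, at adjusted p = 0.0609, 0.0744 and 0.0604. SCARB2, also known as LIMP-2, a membrane protein of lysosomes that serves as a sorting receptor (ENSG00000138760, chr4:76158733-76234536, minus strand), had 43.9, 32.1 and 39.8 TPM in combination, 34.1, 24.2 and 33.5 TPM in disulfiram, 22.8, 30.1 and 28.0 TPM in thalidomide and 26.7, 31.4 and 27.6 TPM in control. Its combination libraries lay above control, with a fold change of 0.41 ± 0.16 that did not pass (adjusted p = 0.0718, limma). LAMP2, which serves chaperone-mediated autophagy, overlapped control in both comparisons, at 0.22 ± 0.13 for the combination and 0.02 ± 0.13 for disulfiram.

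**Figure D2:**
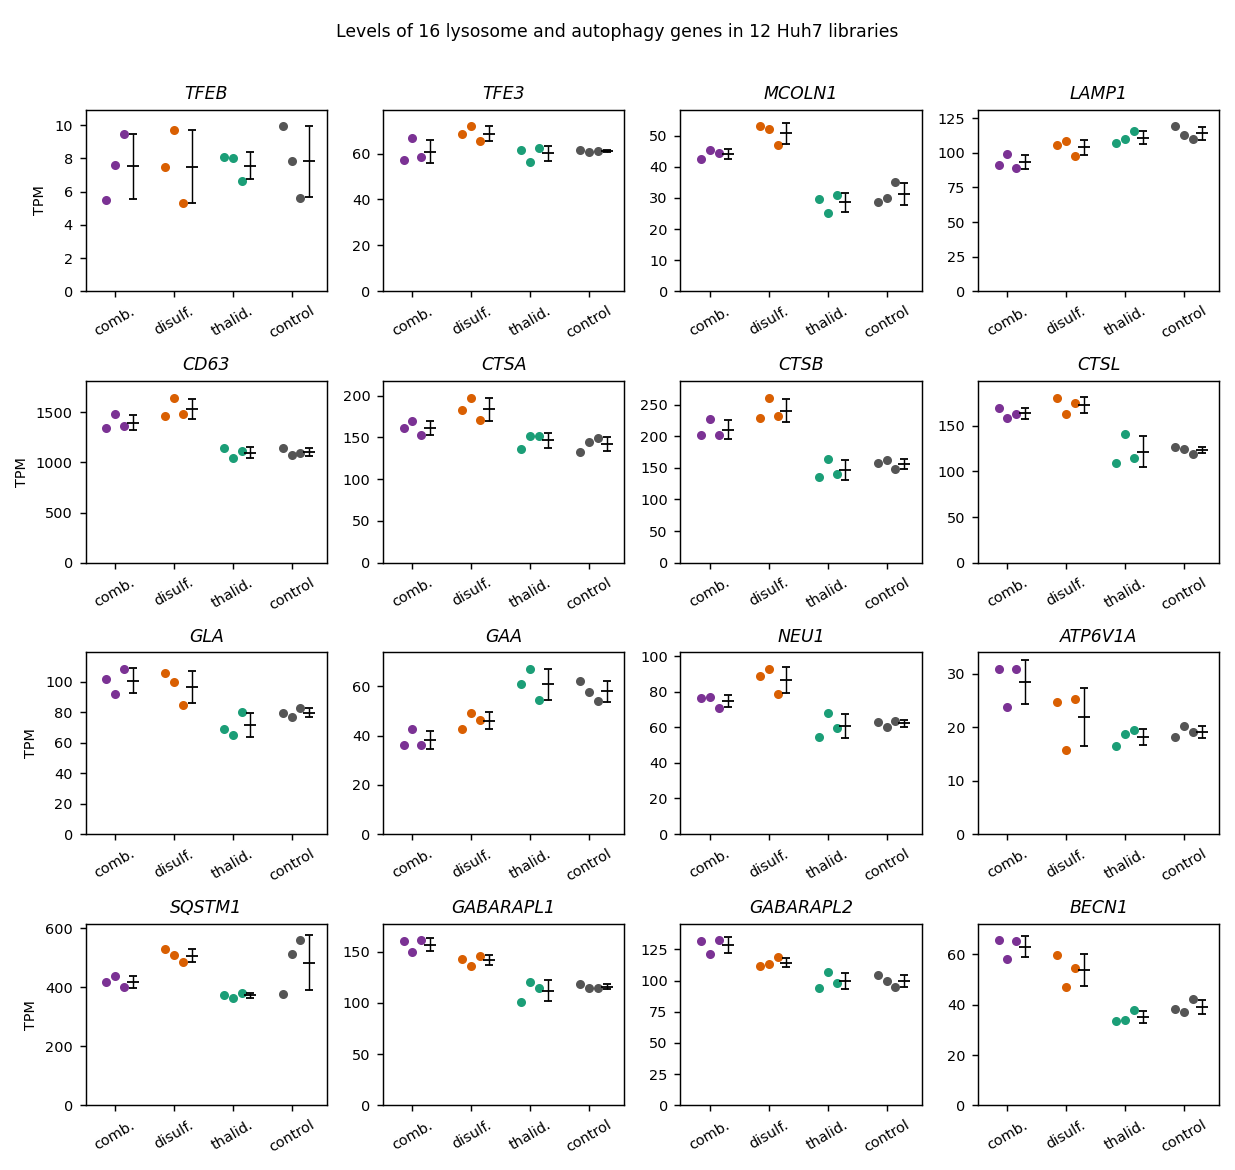
TPM (vertical axis, from 0) of members in each library, with points for the 3 libraries of a group and bars for the mean ± SD, in the order combination, disulfiram, thalidomide and control. MCOLN1, CD63, CTSB and CTSL were higher in both disulfiram-treated groups than in control, with GAA lower in the combination and TFEB overlapping between groups.

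Of the 9 proteases, CTSA, CTSB and CTSL rose with disulfiram and CTSB and CTSL with the combination. Cathepsin B (ENSG00000164733, chr8:11842524-11869448, minus strand) is a cysteine protease, and CTSB had 202, 227 and 202 TPM in combination, 228, 261 and 232 TPM in disulfiram, 136, 164 and 139.7 TPM in thalidomide and 158, 163 and 147 TPM in control. The lowest disulfiram-treated value was above the highest control value. Its fold change was 0.62 ± 0.09 for disulfiram (limma adjusted p = 0.0014) and 0.43 ± 0.09 for the combination (adjusted p = 0.00806). Cathepsin L, another cysteine protease (ENSG00000135047, chr9:87725519-87731393, plus strand), had CTSL values of 169.8, 158 and 163 TPM in combination, 181, 163 and 175 TPM in disulfiram, 109, 141 and 115 TPM in thalidomide and 126, 124 and 119.6 TPM in control. Again neither disulfiram-treated group overlapped control, and the fold change was 0.48 ± 0.09 for disulfiram (adjusted p = 0.0059, limma) and 0.40 ± 0.09 for the combination (adjusted p = 0.0108). With median-of-ratios scaling both combination calls were lost, at adjusted p = 0.161 for CTSB and 0.115 for CTSL. Pseudogenes of CTSL stayed at or below 0.3 TPM.

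CTSA, the carboxypeptidase that also protects neuraminidase (ENSG00000064601, chr20:45890144-45898820, plus strand), had 161, 169.6 and 153 TPM in combination, 183, 198 and 171 TPM in disulfiram, 136, 152 and 151 TPM in thalidomide and 133, 144 and 150.0 TPM in control. Disulfiram libraries did not overlap control, with a fold change of 0.36 ± 0.08 (adjusted p = 0.0123, limma). In the combination the value was 0.18 ± 0.08 and did not pass (adjusted p = 0.114). Without control replicate 1 the disulfiram call was lost at adjusted p = 0.0533, and with median-of-ratios scaling at 0.129. The other 6 proteases were not called. CTSC, which activates granule proteases, was below control in all libraries of both groups, at -0.31 ± 0.13 in the combination and -0.40 ± 0.13 with disulfiram (adjusted p = 0.0926 and 0.0633, limma). CTSD, the main aspartic protease, had 0.03 ± 0.10 in the combination and 0.29 ± 0.10 with disulfiram. CTSZ, a carboxypeptidase, had 0.02 ± 0.06 in the combination and 0.17 ± 0.06 with disulfiram, and CTSF, a cysteine protease, had -0.27 ± 0.13 in the combination and 0.12 ± 0.13 with disulfiram. After a GC correction CTSD was at 0.20 in the combination and 0.28 with disulfiram, and CTSC at -0.66 in the combination and -0.42 with disulfiram. All of these then passed in limma, CTSD at adjusted p = 0.0145 in the combination and 0.00251 with disulfiram, and CTSC at 0.000581 in the combination and 0.00637 with disulfiram. The aminopeptidase CTSH and the tripeptidyl peptidase TPP1 lay between -0.15 and 0.06 in these comparisons.

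The glycosidases went different ways. NEU1, a sialidase (ENSG00000204386, chr6:31857659-31862906, minus strand), had 76.4, 77.3 and 70.8 TPM in combination, 89.1, 92.9 and 78.7 TPM in disulfiram, 54.6, 68.3 and 59.6 TPM in thalidomide and 62.8, 60.2 and 63.6 TPM in control. The disulfiram libraries were all above control, with a fold change of 0.47 ± 0.09 (adjusted p = 0.00742, limma) that held under every alternative run, while the combination value, 0.26 ± 0.09, did not pass (adjusted p = 0.059). GLA, alpha-galactosidase A (ENSG00000102393, chrX:101397803-101408012, minus strand), had 102, 92.2 and 108 TPM in combination, 105, 99.7 and 84.8 TPM in disulfiram, 68.8, 65.2 and 80.4 TPM in thalidomide and 79.8, 76.5 and 82.8 TPM in control. All disulfiram-treated libraries were above control, yet only the combination passed, at 0.33 ± 0.10 (adjusted p = 0.0379, limma) against 0.27 ± 0.10 for disulfiram (adjusted p = 0.112), and the difference between the combination and disulfiram, 0.06 ± 0.10, did not pass (adjusted p = 0.769). The GLA call did not hold throughout. Leaving out combination replicate 1 or 3 or any 1 control library ended it, at adjusted p = 0.0696 to 0.14, median-of-ratios scaling gave 0.41, and testing without a filter gave 0.0738.

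GAA, the acid alpha-glucosidase that degrades glycogen (ENSG00000171298, chr17:80101556-80119879, plus strand), had 36.3, 42.6 and 36.2 TPM in combination, 42.7, 49.4 and 46.2 TPM in disulfiram, 60.9, 67.1 and 54.5 TPM in thalidomide and 62.2, 57.8 and 53.9 TPM in control. The combination and disulfiram libraries were all below every control library. GAA fell by 0.58 on the log2 scale in the combination (SE 0.10, limma adjusted p = 0.00391), a call kept under every alternative run, and stood at -0.32 ± 0.10 with disulfiram, which did not pass (adjusted p = 0.0588). GUSB, beta-glucuronidase, and HEXA, a subunit of beta-hexosaminidase, were not called, at -0.09 ± 0.08 and -0.01 ± 0.09 in the combination and 0.12 ± 0.08 and 0.05 ± 0.09 with disulfiram.

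None of the 4 genes of lipid handling passed in either comparison. PSAP, the precursor of the saposins, averaged 562 ± 39.7 TPM in combination, 666 ± 22.6 TPM in disulfiram and 593 ± 45.5 TPM in control. Its disulfiram libraries were all above control, with a fold change of 0.17 ± 0.07 (adjusted p = 0.151, limma). The cholesterol exporters NPC1 and NPC2 overlapped control, at 0.10 ± 0.12 and 0.01 ± 0.11 with disulfiram and 0.01 ± 0.12 and -0.13 ± 0.11 in the combination. ASAH1, acid ceramidase, spread widely, with 122 ± 27.8 TPM in combination, 101 ± 33.1 TPM in disulfiram and 101 ± 9.02 TPM in control.

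In the proton pump, ATP6V1A, the catalytic subunit of the cytosolic domain (ENSG00000114573, chr3:113747019-113812056, plus strand), had 30.8, 23.7 and 30.9 TPM in combination, 24.8, 15.7 and 25.4 TPM in disulfiram, 16.5, 18.7 and 19.4 TPM in thalidomide and 18.1, 20.3 and 19.1 TPM in control. Combination libraries did not overlap control, while the second disulfiram library was the lowest of all 12. The fold change was 0.54 ± 0.17 in the combination (adjusted p = 0.0365, limma) and 0.16 ± 0.17 with disulfiram (adjusted p = 0.59). Without the second libraries of disulfiram and the combination the disulfiram value was 0.37 and passed (adjusted p = 0.0307). The combination call was lost without combination replicate 1 or 3 or any 1 control library, at adjusted p = 0.061 to 0.124, and with median-of-ratios scaling, a GC correction or no filter, at 0.0894, 0.062 and 0.0833. ATP6V1H, a regulatory subunit, had 0.26 ± 0.11 in the combination and -0.05 ± 0.11 with disulfiram. ATP6V0D1, of the membrane domain, had 0.04 ± 0.08 in the combination and 0.19 ± 0.08 with disulfiram. None of these 4 values passed.

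In autophagy, the scaffold BECN1 and 2 members of the GABARAP family rose, and the receptor SQSTM1 did not pass. BECN1 is the core of the lipid kinase complex that starts autophagosomes (ENSG00000126581, chr17:42810134-42833350, minus strand) and had 65.6, 58.3 and 65.1 TPM in combination, 59.7, 47.2 and 54.7 TPM in disulfiram, 33.5, 34.1 and 37.8 TPM in thalidomide and 38.3, 37.1 and 42.4 TPM in control. All 6 disulfiram-treated libraries were above all 6 others. The fold change was 0.67 ± 0.10 in the combination (adjusted p = 0.00173, limma), the largest of the 37 there, and 0.44 ± 0.10 with disulfiram (adjusted p = 0.0145). The combination call held under every alternative run. The disulfiram call was lost without disulfiram replicate 1 or 3 or control replicate 1 or 2, at adjusted p = 0.0508 to 0.0579. PSME3, which overlaps BECN1 on the opposite strand, averaged 133 ± 6.66 TPM in combination, 138 ± 9.34 TPM in disulfiram and 160.5 ± 16.9 TPM in control, with fold changes below 0 that did not pass.

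GABARAPL1, which attaches to autophagosome membranes and recruits cargo (ENSG00000139112, chr12:10212458-10223130, plus strand), had 160.5, 149 and 161 TPM in combination, 143, 136 and 146 TPM in disulfiram, 101, 121 and 114 TPM in thalidomide and 118, 115 and 114 TPM in control. Both disulfiram-treated groups were wholly above control, with 0.44 ± 0.08 in the combination (adjusted p = 0.00386, limma) and 0.29 ± 0.08 with disulfiram (adjusted p = 0.0285). Leaving out disulfiram replicate 1 or 3 or any 1 control library ended the disulfiram call, at adjusted p = 0.0624 to 0.102, and so did median-of-ratios scaling, at 0.136. GABARAPL2, its relative (ENSG00000034713, chr16:75566351-75577881, plus strand), had 131, 121 and 132 TPM in combination, 112, 113 and 119 TPM in disulfiram, 94.4, 107 and 98.0 TPM in thalidomide and 105, 99.4 and 94.9 TPM in control. Its combination libraries lay above control, at 0.36 ± 0.07 (adjusted p = 0.00699, limma), and the call was lost with median-of-ratios scaling (0.165) and with a GC correction (0.289). The near-identical GABARAPL3 did not exceed 0.57 TPM in any library.

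MAP1LC3B, the classic marker of autophagosomes (ENSG00000140941, chr16:87383995-87404779, plus strand), had 75.7, 64.9 and 74.3 TPM in combination, 70.2, 61.2 and 66.3 TPM in disulfiram, 51.1, 58.7 and 61.9 TPM in thalidomide and 61.0, 62.6 and 57.3 TPM in control. Its combination libraries did not overlap control, but 0.24 ± 0.09 did not pass (adjusted p = 0.0762, limma). SQSTM1, the cargo receptor p62 that is itself degraded by autophagy (ENSG00000161011, chr5:179806398-179838078, plus strand), had 416, 437 and 399 TPM in combination, 528, 508 and 485 TPM in disulfiram, 373, 364 and 379.9 TPM in thalidomide and 378, 513 and 559 TPM in control. Control replicate 1 stood at the level of the thalidomide libraries, apart from the other 2 control libraries, so the control spread was wide. The fold change was -0.19 ± 0.12 in the combination and 0.09 ± 0.12 with disulfiram, neither past the threshold (adjusted p = 0.223 and 0.676, limma). Without control replicate 1 the combination value became -0.36 (adjusted p = 0.0149) and the disulfiram value turned to -0.08 (adjusted p = 0.571). MGAT4B, which overlaps SQSTM1 on the opposite strand, was lower in the combination, at -0.24 ± 0.07 (adjusted p = 0.037, limma). With disulfiram MGAT4B was at 0.04 ± 0.07 and did not pass. Whether reads were split between the 2 genes was not tested. ULK1, WIPI1, ATG5 and ATG7, which start or extend the membrane, were not called, with values between -0.09 and 0.45 in the combination and between -0.09 and 0.30 with disulfiram. The value of 0.30 is that of ATG7. VGLL4, which overlaps ATG7 on the opposite strand, rose by 0.53 ± 0.09 in the combination and 0.65 ± 0.09 with disulfiram (adjusted p = 0.00266 and 0.000859, limma).

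With thalidomide no member passed the limma threshold, and 0% of all genes did. At an unadjusted p below 0.05 there was 1 member, SQSTM1, and 873 of 15352 genes. The median fold change of the members was -0.03, as over all genes. SQSTM1 averaged 372 ± 7.91 TPM in thalidomide and 483 ± 94.1 TPM in control, a fold change of -0.35 ± 0.12 (adjusted p = 0.74). Without control replicate 1 it was -0.52 and passed (adjusted p = 0.03, limma). ATP6V0D1 was the single member whose thalidomide libraries, with 95.5, 87.4 and 96.5 TPM, lay apart from control, with 103, 102 and 104 TPM. They were lower, against 6.32% of all genes lower and 3.91% higher without overlap.

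The combination against disulfiram shows what was different when thalidomide was present as well. No member passed (smallest adjusted p = 0.26, for PSAP, limma), and over all genes 1 did, 0.00651%. At an unadjusted p below 0.05 there were 13 members, 4 higher and 9 lower, and 2631 of 15352 genes. The libraries did not overlap for 12 members lower and 3 higher in the combination, against 6.54% and 9.69% of all genes. The 12 were MCOLN1, CTSA, CTSB, CTSF, CTSH, CTSZ, GAA, GUSB, NEU1, PSAP, NPC2 and SQSTM1, and the 3 were ATP6V1H, GABARAPL1 and GABARAPL2. PSAP had 545, 608 and 534 TPM in combination, against 647, 691 and 659.9 TPM in disulfiram, a fold change of -0.25 ± 0.07. CTSF had 31.8, 38.9 and 28.8 TPM in combination, against 40.4, 46.4 and 43.4 TPM in disulfiram, and was the lowest of these at -0.39 ± 0.13. The members' median was -0.13, against 0.06 over all genes. After a GC correction these medians were -0.05 and 0.05, and with median-of-ratios scaling -0.23 and -0.02.

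No interaction term, which asks whether the combination differs from the sum of both drugs' changes on the log2 scale, passed for a member, and 0% of all genes did. The smallest adjusted p was 0.466, shared by several members (limma). At an unadjusted p below 0.05 there were 5 members, BECN1 higher and PSAP, GUSB, CTSF and GAA lower, and 1580 genes.

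Against thalidomide, 12 members rose and 2 fell in the combination, where 32.2% of all genes passed (25% higher, 7.24% lower). The 12 were MCOLN1, SCARB2, CD63, CTSB, CTSL, GLA, NEU1, ATP6V1A, MAP1LC3B, GABARAPL1, GABARAPL2 and BECN1, and LAMP1 and GAA fell. BECN1 had 0.82 ± 0.10 (adjusted p = 0.000384), MCOLN1 0.61 ± 0.10 (adjusted p = 0.00224) and GAA -0.65 ± 0.10 (adjusted p = 0.00159, limma). The combination libraries lay wholly above the thalidomide libraries for 15 members and below them for 4, against 33.9% and 10.8% of all genes. Leaving out combination replicate 1 or combination replicate 3 brought the count to 9 each, where the share of all genes was 14.8% and 14.2%. SCARB2 (0.0509 to 0.128), NEU1 (0.0591 to 0.125), ATP6V1A (0.0729 to 0.0749), MAP1LC3B (0.0927 to 0.106) and LAMP1 (0.063 to 0.0934) lost the call without at least 1 combination or thalidomide library, where the values are the adjusted p in those cases. With median-of-ratios scaling 3 members were higher and 9 lower, against 11.8% and 14.7% of all genes. Of the 14 calls 5 were kept, those of MCOLN1, GABARAPL1, BECN1, LAMP1 and GAA.

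The 5 members with a CLEAR core in the printed stretches had unlike fold changes against control. MCOLN1 was at 0.49 in the combination and 0.69 with disulfiram, and CTSA was at 0.18 in the combination and 0.36 with disulfiram. GAA was at -0.58 in the combination and -0.32 with disulfiram, and LAMP1 was at -0.29 in the combination and -0.13 with disulfiram. ATP6V0D1, at 0.04 in the combination and 0.19 with disulfiram, passed in neither. Of the members with the full element, MCOLN1 rose in both comparisons and GAA fell in the combination.

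**Figure D3:**
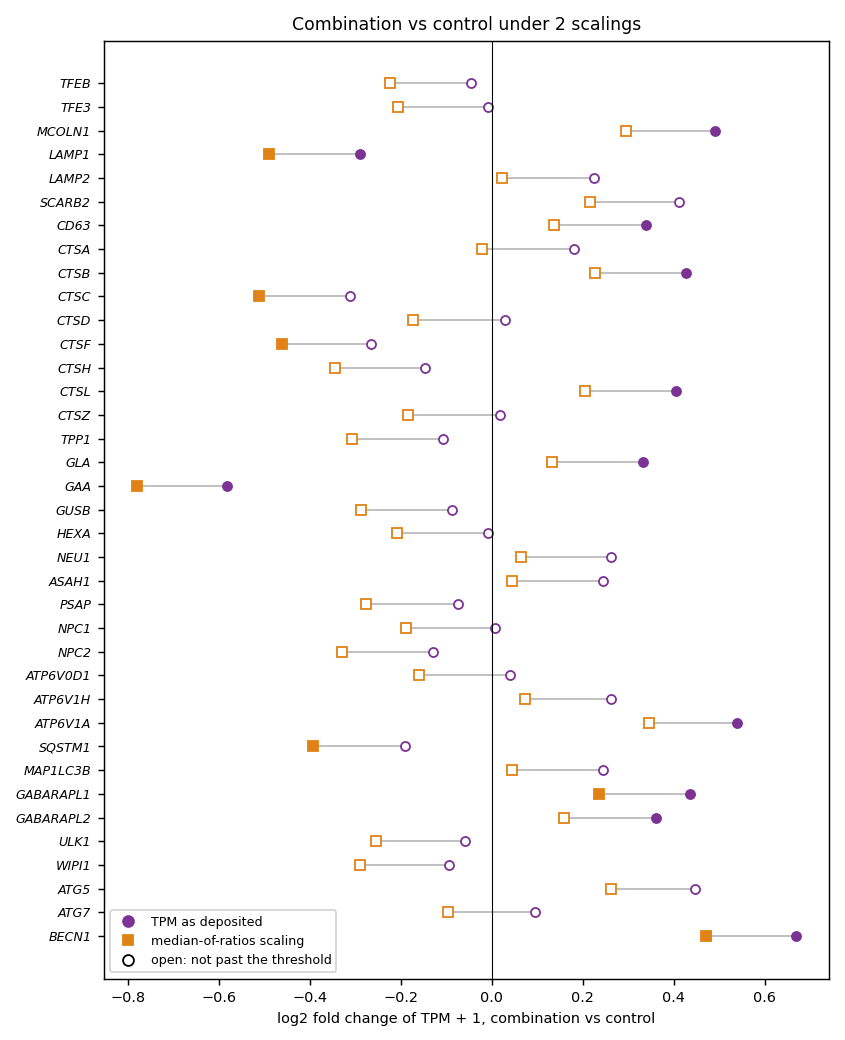
Log2 fold change of TPM + 1 (horizontal axis), combination against control, for each of the 37 genes with TPM as deposited (circles) and after median-of-ratios scaling (squares), filled where past the threshold. All points shift to the left with the scaling, and GAA, LAMP1, GABARAPL1 and BECN1 are filled under both.

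The second disulfiram and second combination libraries departed from the other libraries of their groups by base composition. Among the 8 members under 45% GC, ASAH1, LAMP2, CTSC, ATG5, ATP6V1A and SCARB2 were lower in both second libraries, while NPC2 and GABARAPL2 departed little. Over the 37 genes, whose longest transcripts span 37.3% to 64.2% GC, the second library minus the mean of the other 2 correlated with GC at Pearson r = 0.83 (Spearman rho = 0.84) in combination and 0.74 (0.67) in disulfiram, against -0.12 (-0.12) in thalidomide and -0.18 (-0.09) in control. The points share their libraries and are given as a description across genes. Over all genes the deviation from the group mean followed GC at rho = 0.66 in the second combination library and 0.60 in the second disulfiram library. It was -0.59 and -0.37 in libraries 1 and 3 of the combination and -0.49 and -0.30 in those of disulfiram. In thalidomide the first library stood at 0.48, the second at -0.06 and the third at -0.39, and the control libraries lay between -0.18 and 0.13. ATP6V1A had 30.8, 23.7 and 30.9 TPM in combination and ASAH1 149, 93.1 and 123 TPM, the second library lowest in both. Leaving out both second libraries, 14 members were higher and 3 lower in the combination, where 38.1% of all genes passed, with LAMP2, SCARB2, ASAH1, ATG5 and MAP1LC3B newly higher and CTSF newly lower. With disulfiram 9 were then higher and 1 lower, where 16.5% of all genes passed, with ATP6V1A newly higher and GAA newly lower (adjusted p = 0.0364, limma). A GC correction of all libraries gave 10 higher and 3 lower in the combination, against 18.7% and 6.64% of all genes. CTSA, NEU1 and CTSD were then newly higher (limma adjusted p = 0.0262 for CTSA and 0.0212 for NEU1) and CTSC newly lower. With disulfiram 9 were higher and 2 lower after that correction, against 12.4% and 6.57% of all genes, with CTSD newly higher and GAA (adjusted p = 0.0146) and CTSC newly lower. The part of GC in the members' spread was not otherwise tested.

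**Figure D4:**
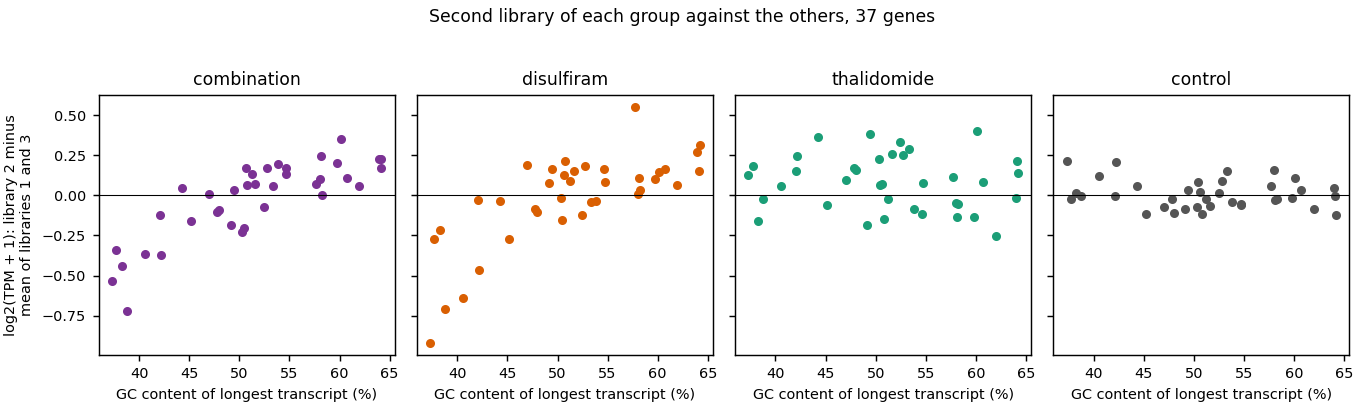
Log2(TPM + 1) of the second library minus the mean of the first and the third (vertical axis) against GC content of the longest transcript in percent (horizontal axis), 1 point for each of the 37 genes, in combination, disulfiram, thalidomide and control. Points climb with GC in the combination (r = 0.83) and disulfiram (r = 0.74) and not in thalidomide (r = -0.12) and control (r = -0.18), of which the second libraries alone are plotted here.

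The rest of the pathway was read from 7 lists that hold 127 other tested genes. Of these 23 rose and 1 fell with disulfiram, and 42 rose and 8 fell in the combination. With disulfiram that is 18.1% higher and 0.787% lower, against 8.73% and 4.52% of all genes. In the combination it is 33.1% and 6.3%, against 18.4% and 6.7%. The median fold change of the 127 genes was 0.18 with disulfiram, against 0.09 over all genes, and 0.27 in the combination, against 0.20 over all genes. With median-of-ratios scaling 10 were higher and 1 lower with disulfiram, or 7.87% and 0.787%, against 5% and 6.31% of all genes. In the combination 22 were then higher and 12 lower, or 17.3% and 9.45%, against 8.8% and 12.2%.

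Of 30 other hydrolases, 7 rose and 4 fell in the combination, and 7 rose and 1 fell with disulfiram. The combination shares were 23.3% higher and 13.3% lower, against 18.4% and 6.7% of all genes. With disulfiram they were 23.3% and 3.33%, against 8.73% and 4.52%. With median-of-ratios scaling 3 were higher and 7 lower in the combination, or 10% and 23.3%, against 8.8% and 12.2% of all genes. With disulfiram 4 were then higher and 1 lower, or 13.3% and 3.33%, against 5% and 6.31%. IDS, the iduronate sulfatase, rose by 1.23 ± 0.12 in the combination and 1.20 ± 0.12 with disulfiram (limma adjusted p = 0.000142 in the combination and 0.000149 with disulfiram). CTSS, a cysteine protease, rose at low levels, 4.51 ± 0.8 TPM in combination and 4.11 ± 1.76 TPM in disulfiram against 1.47 ± 0.64 TPM in control. GALC, the galactosylceramidase, fell, at -0.55 ± 0.17 in the combination and -0.70 ± 0.17 with disulfiram.

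Of 14 other subunits of the proton pump, 9 rose in the combination and 4 with disulfiram, and none fell in either. The shares that rose were 64.3% and 28.6%, against 18.4% and 8.73% of all genes. Examples are ATP6V1C1 (0.97 ± 0.29), ATP6V1D (0.75 ± 0.20) and ATP6V1G1 (0.59 ± 0.12) in the combination, TCIRG1 (0.56 ± 0.12 in the combination and 0.41 ± 0.12 with disulfiram), and ATP6V0A1 (0.46 ± 0.09), ATP6V0E1 (0.32 ± 0.09) and ATP6V1F (0.31 ± 0.07) with disulfiram. With median-of-ratios scaling the limma count was 4 for the combination and 0 for disulfiram. Those shares were 28.6% and 0%, against 8.8% and 5% of all genes higher. In the lysosomal membrane list 5 of 20 rose and 1 fell in the combination, among them LAMTOR3 (0.86 ± 0.24), MFSD8 (0.81 ± 0.25) and SLC38A9 (0.65 ± 0.14), and LAMTOR5 rose with disulfiram (0.39 ± 0.10). The membrane shares were 25% higher and 5% lower in the combination, against 18.4% and 6.7% of all genes. With disulfiram 5% rose, against 8.73%. With median-of-ratios scaling 2 of this list were higher and 2 lower in the combination, or 10% each, against 8.8% and 12.2% of all genes. With disulfiram 0 then passed. Of 6 genes of mannose 6-phosphate sorting, SORT1 rose (0.49 ± 0.12) and IGF2R, the sorting receptor, fell (-0.37 ± 0.10) in the combination, and NAGPA rose with disulfiram (0.49 ± 0.10). Each of these calls is 16.7% of the sorting list, against the same shares of all genes. With median-of-ratios scaling the SORT1 call was lost, while those of IGF2R and NAGPA were kept.

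Of 29 other autophagy machinery genes 10 rose in the combination and 6 with disulfiram, and none fell. The shares that rose were 34.5% and 20.7%, against 18.4% and 8.73% of all genes. With median-of-ratios scaling 6 were higher in the combination and 2, ATG14 and WDR45, with disulfiram. Those shares were 20.7% and 6.9%, against 8.8% and 5% of all genes higher. ATG14, the partner of BECN1 in its lipid kinase complex, rose by 1.06 ± 0.17 in the combination and 1.24 ± 0.17 with disulfiram (limma adjusted p = 0.00247 in the combination and 0.001 with disulfiram). PIK3C3, the kinase of that complex, rose by 0.95 ± 0.29 in the combination, with ATG10 (1.18 ± 0.36) and ATG4A (1.01 ± 0.22). With disulfiram WDR45 (0.70 ± 0.08), ATG16L1 (0.50 ± 0.12) and ATG2A (0.47 ± 0.11) rose. With disulfiram 2 of 10 other receptors rose, or 20%, against 8.73% of all genes. In the combination 6 rose and 1 fell, or 60% and 10%, against 18.4% and 6.7%. The mitophagy receptors BNIP3 (1.02 ± 0.22 in the combination and 0.97 ± 0.22 with disulfiram) and BNIP3L (1.04 ± 0.31, combination), as well as NBR1 (0.76 ± 0.16 in the combination and 0.56 ± 0.16 with disulfiram) and OPTN (0.78 ± 0.16, combination), were among them. Of 18 genes of nutrient sensing, 4 rose (22.2%) and 1 fell (5.56%) in the combination, against 18.4% and 6.7% of all genes. With disulfiram 2 rose (11.1%), against 8.73%. RRAGC, a GTPase that recruits mTORC1 to lysosomes, rose in both (0.58 ± 0.15 in the combination and 0.68 ± 0.15 with disulfiram), RRAGA with disulfiram (0.30 ± 0.09), and FNIP1 (0.94 ± 0.23), PRKAA1 (0.83 ± 0.27) and FNIP2 (0.59 ± 0.19) in the combination. With median-of-ratios scaling FNIP1 alone stayed higher in the combination, with 1 gene lower, and RRAGC alone with disulfiram. The counts of the other receptors did not change with that scaling.

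Of the 37 members, 16 share exonic bases with another annotated gene, 15 of them on the opposite strand. In 7 the highest TPM of the other gene in any library was at least 10% of the member's lowest. With the strand of the libraries not known, their values are uncertain to that extent.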

How the data were processed

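Gene expression was read from the deposited TPM table of 12 libraries, whose columns share 1 total. Per the submitters' processing notes, the authors used HISAT2 2.0, StringTie 1.3.0 and build hg38, while the annotation is not given in the sources used here. TPM keeps no read counts, so the depth of each library is unknown and counting error cannot be stated. All 12 value columns were used. Symbols and coordinates came from GENCODE 29.

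Genes reaching 1 TPM in 3 or more libraries were put on a log2(TPM + 1) scale. Groups were tested by limma 3.58.1 (R 4.3.3) with its mean-variance trend, 2-sided, with all 12 libraries in 1 fit. The pseudocount of 1 understates changes of low genes. A GC correction, other pseudocounts and filters, another scaling, a replicate block and leaving out libraries were the alternatives. Figures used matplotlib and promoters came from RefSeq (GRCh38.p14). Values per library are given for members past the threshold in any comparison and for TFEB, TFE3, MCOLN1, LAMP1, SQSTM1 and MAP1LC3B. Of each other list, up to 4 called genes with the largest change are named per comparison. Some genes that this rule names are not reported here. The members and lists were chosen with earlier results of these data known.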

Additional observations from a re-analysis of the deposited data

How the results depend on the processing

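No member past the threshold changed direction under any alternative run. The shares of all genes past the limma threshold, given here after each count of members, moved as well. With disulfiram the count was 8 (13.2%), and leaving out each library in turn gave 5 (7.91%, without control replicate 1) to 11 (14.3%, without combination replicate 2). For the combination the count was 11 (25.1%). It became 7 (21%) with median-of-ratios scaling and 17 (38.1%) without the second library of disulfiram and of the combination, and leave-one-out gave 8 (9.29%, without combination replicate 3) to 15 (33.1%, without combination replicate 2). With thalidomide, leave-one-out gave 0 to 1 (0.163%, without control replicate 1). Against thalidomide the combination had 14 (32.2%), and leave-one-out gave 9 (14.8% and 14.2%, without combination replicate 1 and 3) to 16 (38.1%, without combination replicate 2). The combination against disulfiram and the interaction stayed at 0 under every alternative. The pseudocount of 0.1, testing without a filter, a mean TPM of at least 5 and fitting the compared groups only kept each count within 1.5 times. Without the filter, GLA and ATP6V1A lost their calls in the combination (adjusted p = 0.0738 and 0.0833, limma).

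No label says that same-numbered libraries share more than the number. Of 18 same-numbered pairs 4 correlated above 0.1 (r from -0.15 to 0.37), and 6 of 12 libraries correlated best with their own number. The highest value was that of the second combination and second disulfiram libraries, and the first libraries of these groups were at 0.21. With the replicate block the counts were 10 (11.6% of all genes) for disulfiram, 11 (23.3%) for the combination and 15 (30.2%) for the combination against thalidomide. With the block and a GC correction together they were 11 (16.8%) for disulfiram, 13 (23.3%) for the combination and 16 (28.6%) for the combination against thalidomide. Depth is unknown from TPM, so low members such as TFEB, ATG5 and ATP6V1H carry an error that cannot be separated into counting and other parts.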
